A study of Homo sapiens with 48 samples.

Results

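The genes described here encode the proteins of the mitochondrial respiratory chain and of ATP synthase that are read from nuclear DNA. They were chosen by name: symbols that begin with NDUFA, NDUFB, NDUFC, NDUFS or NDUFV (complex I), SDHA to SDHD (complex II), UQCR or CYC1 (complex III), COX4 to COX8 (complex IV) and ATP5 (complex V, ATP synthase). Of 92 matching rows in the count table, 4 NDUFAF assembly factors and 1 pseudogene were left out, and 6 had a mean under 1 CPM (counts scaled to a common library size) over the 48 libraries. The 81 genes kept, of 25066 in the table, comprised 37 of complex I, 4 of complex II, 9 of complex III, 13 of complex IV, 15 of ATP synthase and 3 that share a prefix but encode no subunit. The 6 genes under the minimum were COX4I2, COX6A2, COX6B2, COX7A1, COX7B2 and COX8C, isoforms known from lung, muscle or testis, with means of 0.0647 CPM or less. Just inside the minimum was NDUFA4L2, a relative of the complex IV subunit NDUFA4, with a mean of 6.21 CPM in TMD8 and 0.784 CPM in HBL1.

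The study treated TMD8 and HBL1 cells, both Cas9-engineered lines of the activated B cell-like type of diffuse large B cell lymphoma, with 3 compounds or vehicle. The treated groups received NGI-1 at 5 µM, an inhibitor of the oligosaccharyltransferase that attaches N-glycans to proteins, acalabrutinib at 50 nM, an inhibitor of the kinase BTK, or copanlisib at 20 nM, a PI3K inhibitor. The vehicle groups received DMSO. RNA was taken after 3, 6 and 24 h, which gave 24 groups of 2 libraries each. All groups share the Cas9 engineering and the culture medium, advanced RPMI with 5% FBS. The 3 compounds were set against the same 2 DMSO libraries of their line and time, so their differences from DMSO are not independent of each other.

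The respiratory chain carries electrons from NADH (through complex I) and succinate (through complex II) to coenzyme Q, complex III, cytochrome c and complex IV, which reduces oxygen. Complexes I, III and IV pump protons across the inner mitochondrial membrane, and ATP synthase uses the return flow to make ATP. Complex II is also an enzyme of the citrate cycle and has only nuclear-encoded subunits, whereas complexes I, III, IV and V also contain subunits encoded in mitochondrial DNA, which were not analysed here. B cells are known to raise mitochondrial respiration when they are activated through the B cell receptor, the pathway that BTK and PI3K serve.

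The promoter sequences of the subunits that the results turn on are shown first. They are RefSeq sequences on GRCh38.p14, from 250 bases before to 50 after each gene's start, and 66 of the 81 genes had an entry. Capitals mark 5 motifs searched on both strands: TGCGCA followed by any base and GCGC (the factor NRF1), CCGGAAGT (ETS factors such as GABPA), AAGATGGCG (YY1), CACGTG (the E-box of MYC and its relatives) and TCAAGGTCA (the factor ERR alpha), none of which overlapped another in the sequences shown. The complex II subunits are shown because each was followed in both lines. SDHA lies at chr5:218070-218369 on the plus strand, SDHB at chr1:17053983-17054282 on the minus strand and SDHD at chr11:112086623-112086922 on the plus strand.
SDHA: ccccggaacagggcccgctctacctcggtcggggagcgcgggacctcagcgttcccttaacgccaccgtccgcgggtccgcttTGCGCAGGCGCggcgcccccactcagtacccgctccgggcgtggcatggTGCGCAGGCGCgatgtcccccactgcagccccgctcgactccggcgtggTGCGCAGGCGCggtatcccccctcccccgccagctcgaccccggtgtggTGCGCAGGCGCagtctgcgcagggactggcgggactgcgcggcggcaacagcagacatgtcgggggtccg
SDHB: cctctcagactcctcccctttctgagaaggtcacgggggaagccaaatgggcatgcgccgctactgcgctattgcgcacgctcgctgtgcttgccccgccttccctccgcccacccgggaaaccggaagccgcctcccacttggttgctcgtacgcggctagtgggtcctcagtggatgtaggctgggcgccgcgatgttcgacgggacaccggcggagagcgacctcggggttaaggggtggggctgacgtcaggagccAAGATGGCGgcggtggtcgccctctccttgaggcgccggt
SDHD: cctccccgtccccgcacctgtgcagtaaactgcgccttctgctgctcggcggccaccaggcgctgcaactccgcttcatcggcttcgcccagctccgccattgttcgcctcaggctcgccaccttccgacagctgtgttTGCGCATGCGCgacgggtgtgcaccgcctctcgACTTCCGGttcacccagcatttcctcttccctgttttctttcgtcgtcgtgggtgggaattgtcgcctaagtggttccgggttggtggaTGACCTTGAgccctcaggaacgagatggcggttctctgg
ATP5G1 (chr17:48892537-48892836, plus strand) and ATP5G2 (chr12:53676034-53676333, minus strand) encode the same mature ring protein of ATP synthase and are shown side by side for that reason.
ATP5G1: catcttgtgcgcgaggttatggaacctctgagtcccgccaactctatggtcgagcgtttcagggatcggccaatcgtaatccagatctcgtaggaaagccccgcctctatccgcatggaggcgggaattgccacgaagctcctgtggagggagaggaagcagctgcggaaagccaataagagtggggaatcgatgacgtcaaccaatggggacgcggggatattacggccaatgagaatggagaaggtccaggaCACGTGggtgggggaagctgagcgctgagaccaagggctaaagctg
ATP5G2: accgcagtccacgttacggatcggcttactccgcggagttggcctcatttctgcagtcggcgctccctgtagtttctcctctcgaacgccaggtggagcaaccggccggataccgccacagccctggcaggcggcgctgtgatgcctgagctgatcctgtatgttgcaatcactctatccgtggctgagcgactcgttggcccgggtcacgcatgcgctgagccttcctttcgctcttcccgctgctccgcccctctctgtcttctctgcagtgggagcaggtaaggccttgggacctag
COX4I1 (chr16:85799445-85799744, plus strand), a core subunit of complex IV, is shown because COX4NB (chr16:85799495-85799794, minus strand) starts beside it in the opposite direction, so that most of this stretch is common to both.
COX4I1: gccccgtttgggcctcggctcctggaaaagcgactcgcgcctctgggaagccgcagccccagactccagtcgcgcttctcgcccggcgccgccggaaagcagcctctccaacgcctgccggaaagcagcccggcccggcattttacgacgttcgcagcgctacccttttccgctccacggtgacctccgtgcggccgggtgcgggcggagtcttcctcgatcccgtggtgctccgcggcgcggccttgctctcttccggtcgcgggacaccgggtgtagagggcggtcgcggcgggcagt
NDUFA9 (chr12:4648864-4649163, plus strand), a complex I subunit, was lower in both lines after NGI-1 and copanlisib.
NDUFA9: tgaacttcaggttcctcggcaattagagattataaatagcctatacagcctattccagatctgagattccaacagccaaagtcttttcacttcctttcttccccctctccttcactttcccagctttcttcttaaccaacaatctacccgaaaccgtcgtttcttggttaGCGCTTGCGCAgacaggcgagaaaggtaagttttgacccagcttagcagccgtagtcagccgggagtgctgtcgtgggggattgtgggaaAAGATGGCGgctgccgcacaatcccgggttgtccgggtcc
SDHA held 4 NRF1 matches, and SDHD held 1 match each for NRF1, ETS and ERR alpha. SDHB held 1 YY1 match, ATP5G1 an E-box, NDUFA9 1 match each for NRF1 and YY1, and ATP5G2 and COX4I1 none of these letters. Over the 66 promoters, 13.6% held the NRF1 motif, compared with 3.97% of 15843 protein-coding promoters of the same length. The share was 13.6% against 6.19% for ETS, 12.1% against 2.74% for YY1, 10.6% against 8.88% for the E-box and 1.5% against 0.24% for ERR alpha. A match is a description of these letters and says nothing of binding in these cells.

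The libraries held 7165377 to 11999050 counted reads, of which the 81 genes took 1.009% to 1.557%. All 81 passed the filter on low counts and were among the 13881 genes tested. All 6 B cell markers were detected, with a summed level of 2330 to 4386 CPM over the libraries. Of 7 T and NK cell markers 6 were under 1 CPM in every library, as were 5 of 7 myeloid markers and 2 of 8 stromal or epithelial ones, whose sum was 8.49 to 46.1 CPM. UQCRHL is nearly identical to UQCRH, and SDHA has pseudogenes, so how reads were split among these genes is uncertain. Libraries were made from bulk cultures, in which fewer cells and less RNA per cell cannot be told apart, and a CPM is a share of a library. Whether the 2 libraries of a group are separate cultures is not in the labels. A p-value here therefore reflects only how far these samples varied, possibly for technical reasons. Changes are log2 fold changes ± SE with n = 2 libraries per group, tested with edgeR's quasi-likelihood test, and a gene was called at a Benjamini-Hochberg adjusted p under 0.05 over all genes tested.

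Few or no respiratory chain genes were called in the first hours. None of the 81 was called at 3 h after NGI-1, acalabrutinib or copanlisib in TMD8, where 0.771%, 0.389% and 1.76% of all genes tested were called, or in HBL1, where the shares were 0.353%, 0.245% and 2.1%. None was called by DESeq2, and at most 4 in any of these comparisons were below 0.05 without adjustment. At 6 h none was called in TMD8 after NGI-1 (4.33% of all genes), acalabrutinib (4.64%) or copanlisib (14.6%), nor in HBL1 after NGI-1 (1.13%) or copanlisib (9.53%). DESeq2 gave no call in these 5 comparisons either, and 1 to 6 genes were below 0.05 without adjustment. The exception was acalabrutinib in HBL1 at 6 h, where 5.65% of all genes were called and 2 of the 81. NDUFA13, a complex I subunit, was higher by 0.32 ± 0.10 (adjusted p = 0.034), and NDUFV2, which carries an iron-sulfur cluster of the NADH-oxidising part of complex I, was lower (-0.31 ± 0.09, adjusted p = 0.037). The NDUFA13 call was lost without any 1 of the 4 libraries (adjusted p = 0.056 to 0.3). The NDUFV2 call was lost without DMSO replicate 1 (0.41) or either acalabrutinib library (0.14 and 0.22).

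By 24 h many of the 81 genes were lower than in DMSO. In TMD8 after NGI-1, 31 were lower and 0 higher, where 14.9% of all genes tested were lower and 15.7% higher. After copanlisib 29 were lower and 0 higher (all genes, 16% and 15.8%). After acalabrutinib 15 were lower and 2 higher (all genes, 15.5% in each direction). The 15 lower genes are 18.5% of the 81, close to the share of all genes. The median change was -0.22 after NGI-1, -0.20 after copanlisib and -0.09 after acalabrutinib, compared with 0.00 to 0.01 for all genes tested.

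In HBL1 at 24 h the changes went both ways. After copanlisib 18 of the 81 were lower and 6 higher (all genes, 17.8% and 12.7%). NGI-1 gave 14 lower and 2 higher (all genes, 11.4% and 7.95%), and acalabrutinib 9 lower and 4 higher (all genes, 11.4% and 7.62%). The lower genes made up 22.2%, 17.3% and 11.1% of the 81, and the acalabrutinib share did not exceed that of all genes. The medians were -0.05, -0.06 and 0.00, and that of copanlisib became 0.01 when libraries were scaled by total counted reads. In the plot of changes at 24 h, filled points lie mostly below 0 in TMD8 and on both sides of 0 in HBL1.

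**Figure D1:**
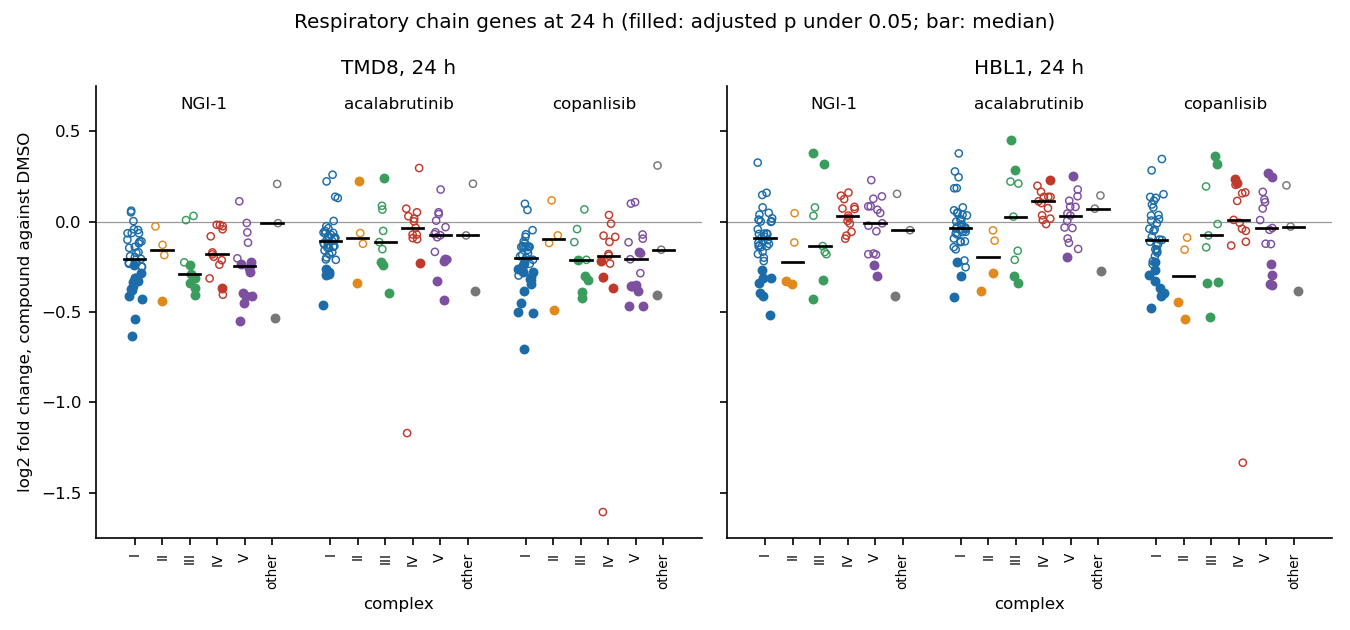
Log2 fold change against DMSO at 24 h of each of the 81 genes (y axis), by complex (x axis), compound and line. Filled points had an adjusted p under 0.05, open points did not, and bars are medians. The lowest open points are NDUFA4L2, at -1.17 in TMD8 after acalabrutinib, -1.61 in TMD8 after copanlisib and -1.33 in HBL1 after copanlisib.

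These counts depended on single libraries. In TMD8 the 31 genes called after NGI-1 became 19 without NGI-1 replicate 1 and 20 without DMSO replicate 2, and the 29 called after copanlisib became 20 to 26. The 17 called after acalabrutinib in TMD8 became 4 without acalabrutinib replicate 2 and 7 without DMSO replicate 1. In HBL1 the 16 called after NGI-1 became 5 when DMSO replicate 1 was left out and 8 when NGI-1 replicate 1 was, and the 24 called after copanlisib became 16 to 20. The 13 called after acalabrutinib in HBL1 became 4 and 7 without its replicates 1 and 2, and 3 and 6 without DMSO replicates 1 and 2. Called with each of the 4 libraries left out in turn were 16, 2 and 16 genes in TMD8 after NGI-1, acalabrutinib and copanlisib, and 3, 1 and 12 in HBL1.

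Complex I, which oxidises NADH, is the largest group of these genes. Of its 37 members, 13 were lower in TMD8 after NGI-1, 5 after acalabrutinib and 12 after copanlisib, and none was higher. In HBL1, 7, 3 and 8 were lower and none was higher. The lower genes were 35.1%, 13.5% and 32.4% of the 37 in TMD8 (all genes, 14.9%, 15.5% and 16%) and 18.9%, 8.1% and 21.6% in HBL1 (all genes, 11.4%, 11.4% and 17.8%). The acalabrutinib shares were thus under those of all genes in both lines. NDUFAB1, the mitochondrial acyl carrier protein, which is also needed for fatty acid and lipoate synthesis, had 68.99 and 80 CPM in TMD8 after NGI-1, 79.6 and 88.4 after acalabrutinib, 67.6 and 74.1 after copanlisib, against 108 and 123 CPM with DMSO. All 6 treated libraries lay below both DMSO libraries. It was lower than with DMSO by 0.63 ± 0.11 after NGI-1 (adjusted p = 3.1e-05), 0.46 ± 0.11 after acalabrutinib (0.0014) and 0.71 ± 0.11 after copanlisib (5.2e-06). The acalabrutinib call was lost without DMSO replicate 2 (adjusted p = 0.05). In HBL1 NDUFAB1 had 78.9 and 89.7 CPM after NGI-1, 84.7 and 108 after acalabrutinib, 81.9 and 92.1 after copanlisib, against 109 and 116 with DMSO. Its change was called there after NGI-1 (-0.41 ± 0.11, adjusted p = 0.0067) and copanlisib (-0.37 ± 0.11, 0.01), but not after acalabrutinib (-0.22 ± 0.11, 0.18). The NGI-1 call was lost without NGI-1 replicate 1 (0.12) or DMSO replicate 2 (0.06), and the copanlisib call without copanlisib replicate 1 (0.15) or DMSO replicate 2 (0.077).

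NDUFA9, which helps to join the peripheral and membrane arms of complex I, had 83.5 and 88.9 CPM in TMD8 after NGI-1, 102 and 103 after acalabrutinib, 92.4 and 99.9 after copanlisib, against 128 and 122 with DMSO. It was lower by -0.54 ± 0.10 after NGI-1 (adjusted p = 5.3e-05) and -0.38 ± 0.10 after copanlisib (0.0027), and both calls held with each library left out. With acalabrutinib the change of -0.29 ± 0.10 (0.023) was lost without DMSO replicate 1 (0.13) or either acalabrutinib library (0.089 and 0.084). In HBL1 NDUFA9 had 98.6 and 93.6 CPM after NGI-1 and 92.5 and 100.4 after copanlisib, against 131 and 122 with DMSO. The differences there were -0.40 ± 0.10 after NGI-1 (adjusted p = 0.0032, 0.066 without DMSO replicate 1) and -0.39 ± 0.10 after copanlisib (0.002, held throughout).

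Of the subunits of the electron-conducting arm, NDUFS1 and NDUFS3 were lower in both lines. NDUFS7 and NDUFS8, of the same arm, were not called against DMSO with any compound at any time. NDUFS1, the large subunit that holds several iron-sulfur clusters, was lower in TMD8 after NGI-1 (-0.31 ± 0.08, adjusted p = 0.0022) and in HBL1 after copanlisib (-0.33 ± 0.08, 0.0017). In TMD8 after copanlisib it was also lower (-0.34 ± 0.08, adjusted p = 0.00081, 0.053 without copanlisib replicate 2). NDUFS3, a neighbouring subunit, had 60.6 and 62.5 CPM in TMD8 after NGI-1, against 80.2 and 83.8 with DMSO (-0.41 ± 0.09, adjusted p = 0.00061). In HBL1 it had 47.0 and 45.7 CPM after copanlisib, against 63.8 and 59.8 with DMSO (-0.42 ± 0.10, adjusted p = 0.00092). Both of these NDUFS3 calls held with each library left out. NDUFV1, the flavin-bearing entry point for NADH, changed less: the copanlisib values were -0.23 ± 0.08 for TMD8 (adjusted p = 0.028) and -0.22 ± 0.08 for HBL1 (0.036), and each call was lost without any of 3 libraries.

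NDUFV2 was called in HBL1 and not in TMD8, but the difference between the lines in its response was not called. In HBL1 it had 67.9 and 72.8 CPM after NGI-1, 60.2 and 73.1 after acalabrutinib, 63.9 and 63.8 after copanlisib, against 91.2 and 86.8 with DMSO. The copanlisib change there was -0.48 ± 0.09 (adjusted p = 8.1e-05) and held with each library left out. In TMD8, where NDUFV2 had 343 and 364 CPM with DMSO, the changes were -0.21 ± 0.08 after NGI-1 (adjusted p = 0.052), -0.04 ± 0.08 after acalabrutinib (0.79) and -0.08 ± 0.08 after copanlisib (0.47). NDUFB10, an accessory subunit of the membrane arm, had 63.4 and 62.4 CPM in TMD8 after NGI-1 and 57.9 and 57.5 after copanlisib, against 83.9 and 79.4 with DMSO (-0.38 ± 0.09, adjusted p = 0.0015, and -0.50 ± 0.09, 4.8e-05). In HBL1 its changes lay between -0.04 and 0.01, with adjusted p-values from 0.8 to 0.98.

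In complex II, succinate dehydrogenase, SDHB was lower in both lines and SDHA in HBL1. SDHB, its iron-sulfur subunit, was called with each compound in each line at 24 h. In TMD8 it had 104 and 105 CPM after NGI-1, 114 and 110.5 after acalabrutinib, 105 and 97.5 after copanlisib, against 146 and 139 with DMSO. The TMD8 changes of -0.44 ± 0.08 (adjusted p = 7.5e-05), -0.34 ± 0.08 (0.0014) and -0.49 ± 0.08 (1.6e-05) held with each library left out. In HBL1 SDHB had 85.2 and 90.5 CPM after NGI-1, 84.95 and 96.3 after acalabrutinib, 77.4 and 85.2 after copanlisib, against 113 and 108 with DMSO. Its copanlisib change of -0.44 ± 0.09 (adjusted p = 9.9e-05) held. The NGI-1 change of -0.33 ± 0.09 (0.0044) did not hold without NGI-1 replicate 1 (0.069) or DMSO replicate 1 (0.062). The acalabrutinib change of -0.28 ± 0.09 (0.015) was lost without DMSO replicate 1 (0.13) or acalabrutinib replicate 1 (0.23).

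SDHA, the flavoprotein that oxidises succinate, had 109 and 106 CPM in HBL1 after NGI-1, 106 and 103 after acalabrutinib and 92.4 and 95.4 after copanlisib, against 141 and 131 with DMSO. All 6 treated HBL1 libraries were below both DMSO libraries, and the changes were -0.34 ± 0.08 (adjusted p = 0.0017, 0.052 without DMSO replicate 1), -0.39 ± 0.08 (0.00055) and -0.54 ± 0.08 (2e-06). In TMD8 SDHA had 244 and 240.2 CPM after NGI-1, 266 and 241 after acalabrutinib, 262 and 225 after copanlisib, against 263 and 266 with DMSO, and no change was called (-0.13 to -0.06, adjusted p = 0.21 to 0.58). The membrane anchors SDHC and SDHD, which bind coenzyme Q, were not lower by the test in any comparison at 24 h. SDHC was higher in TMD8 after acalabrutinib (0.23 ± 0.08, adjusted p = 0.037), a call lost without acalabrutinib replicate 2 (0.35), DMSO replicate 1 (0.21) or DMSO replicate 2 (0.06). SDHD changes lay between -0.19 and -0.08 in the 6 comparisons, with adjusted p-values of 0.054 to 0.47.

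**Figure D2:**
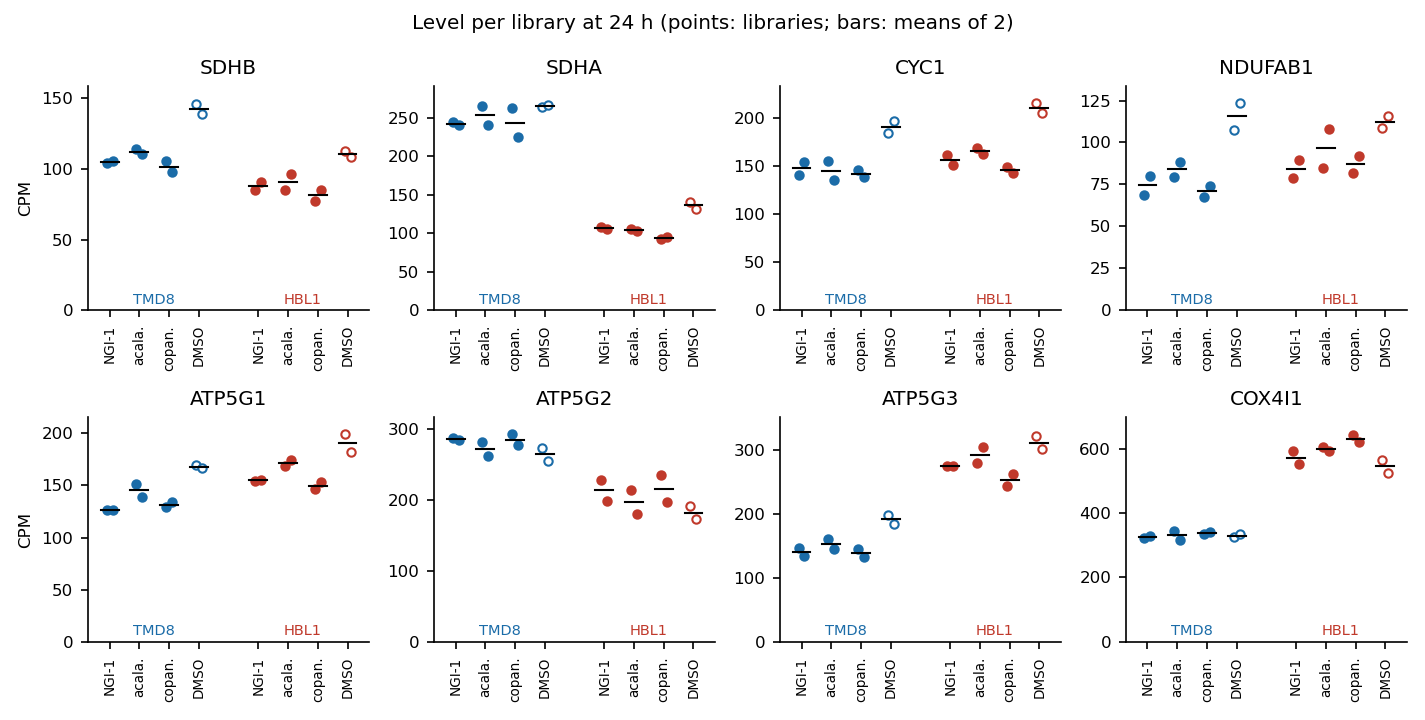
CPM (y axis) of 8 genes in each library at 24 h, after NGI-1, acalabrutinib, copanlisib and DMSO (x axis), in TMD8 (blue) and HBL1 (red). Points are libraries, open for DMSO, and bars are means of 2. SDHB and CYC1 were lower than DMSO in both lines after each compound, as was NDUFAB1 except after acalabrutinib in HBL1, and SDHA was lower in HBL1. ATP5G2 and COX4I1 were not lower.

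Complex III passes electrons from coenzyme Q to cytochrome c. Of its 9 members, 6 were lower in TMD8 after NGI-1, 3 after acalabrutinib and 5 after copanlisib (all genes, 14.9%, 15.5% and 16%). In HBL1 the counts were 2, 2 and 3 (all genes, 11.4%, 11.4% and 17.8%). UQCRB and UQCRHL were higher in HBL1 after each compound, and UQCRB also in TMD8 after acalabrutinib. CYC1, cytochrome c1, had 141 and 155 CPM in TMD8 after NGI-1, 155 and 135 after acalabrutinib, 146 and 138 after copanlisib, against 185 and 197 with DMSO. In HBL1 it had 161 and 152 CPM after NGI-1, 169 and 163 after acalabrutinib and 149 and 143 after copanlisib, against 216 and 205 with DMSO. Each treated library lay below both DMSO libraries of its line. The TMD8 changes were -0.37 ± 0.09 (adjusted p = 0.0014), -0.40 ± 0.09 (0.00066) and -0.43 ± 0.09 (0.0003). The HBL1 changes were -0.43 ± 0.09 (adjusted p = 0.00049), -0.34 ± 0.09 (0.0051) and -0.53 ± 0.09 (1.5e-05). Only the acalabrutinib call in HBL1 was lost with a library left out, DMSO replicate 1 (0.074) or acalabrutinib replicate 2 (0.058).

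UQCRFS1, the Rieske iron-sulfur protein, had 234 and 228 CPM in TMD8 after NGI-1 and 249.3 and 223 after copanlisib, against 296 and 288 with DMSO (-0.34 ± 0.07, adjusted p = 0.00024, and -0.30 ± 0.07, 0.00083). Its HBL1 levels were 99.93 and 99.98 CPM after NGI-1 and 102 and 96.8 after copanlisib, against 128 and 123 with DMSO (-0.33 ± 0.07, adjusted p = 0.0013, and -0.33 ± 0.07, 0.00054). These 4 calls held with each library left out. UQCRC1, a core protein that faces the matrix, was lower in TMD8 after NGI-1 (-0.31 ± 0.08, adjusted p = 0.0034) and copanlisib (-0.39 ± 0.08, 0.00035), and in HBL1 after copanlisib (-0.34 ± 0.08, 0.0018). UQCRB, a small subunit beside the coenzyme Q site, went the other way in HBL1. It had 203 and 207 CPM there after NGI-1, 189 and 210.4 after acalabrutinib and 204 and 205 after copanlisib, against 167 and 162 with DMSO. The rises of 0.32 ± 0.08 after NGI-1 (adjusted p = 0.0054) and 0.32 ± 0.08 after copanlisib (0.0034) held with each library left out, and that after acalabrutinib (0.28 ± 0.08, 0.014) was lost without acalabrutinib replicate 2 (0.2) or either DMSO library (0.062 and 0.086). UQCRHL was also higher in HBL1, by 0.36 to 0.45, but each of its 3 calls was lost without at least 2 of the 4 libraries, with adjusted p-values up to 0.12.

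In complex IV, cytochrome c oxidase, genes were called lower in TMD8 only. By the test of the difference between the lines, given below, only COX5A after copanlisib was called, and not with each library left out. Of 13 members, 1, 1 and 3 were lower in TMD8 after NGI-1, acalabrutinib and copanlisib (all genes, 14.9%, 15.5% and 16%). The NGI-1 and acalabrutinib shares were thus under those of all genes. The TMD8 medians were -0.18, -0.04 and -0.19, compared with -0.21, -0.11 and -0.20 for complex I. In HBL1 0 were lower (all genes, 11.4%, 11.4% and 17.8%). There 0, 1 and 2 were higher (all genes, 7.95%, 7.62% and 12.7%), and the median of the 13 genes was 0.03, 0.11 and 0.01. COX5A, a nuclear-encoded subunit on the matrix side, had 159 and 150 CPM in TMD8 after NGI-1 and 157 and 151 after copanlisib, against 204 and 194 with DMSO. Both differences (-0.37 ± 0.07, adjusted p = 0.00017 and 0.00015) held with each library left out. In HBL1 COX5A had 164 and 164 CPM after NGI-1, 163 and 175 after acalabrutinib and 164 and 164 after copanlisib, against 161 and 170 with DMSO, and these groups overlapped. COX4I1, the subunit through which ATP is known to slow the enzyme, had 324 and 328 CPM in TMD8 after NGI-1, 345 and 316 after acalabrutinib, 336 and 341 after copanlisib, against 326 and 334 with DMSO. HBL1 cells gave 641 and 622 CPM after copanlisib, against 566 and 525 with DMSO (0.21 ± 0.07, adjusted p = 0.019), a call lost without copanlisib replicate 1 (0.12) or DMSO replicate 2 (0.18). COX5B and NDUFA4 were not called in any of the 6 comparisons, and the 2 libraries of a group differed widely for NDUFA4, with 174 and 267 CPM in TMD8 after copanlisib.

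Of the 15 members of ATP synthase, 9 were lower in TMD8 after NGI-1, 4 after acalabrutinib and 7 after copanlisib. In HBL1 2, 1 and 4 were lower and 0, 1 and 2 higher (all genes higher, 7.95%, 7.62% and 12.7%). The lower genes were 60%, 26.7% and 46.7% of the 15 in TMD8 (all genes, 14.9%, 15.5% and 16%). In HBL1 they were 13.3%, 6.7% and 26.7% (all genes, 11.4%, 11.4% and 17.8%), so the NGI-1 share was near that of all genes and the acalabrutinib share under it. The catalytic subunit beta, ATP5B (ATP5F1B), had 1643 and 1570.0 CPM in TMD8 after NGI-1 and 1620.0 and 1418 after copanlisib, against 1999 and 1899 with DMSO. The differences were -0.28 ± 0.07 after NGI-1 (adjusted p = 0.0023) and -0.36 ± 0.07 after copanlisib (0.00013). In HBL1 ATP5B had 972 and 990 CPM after copanlisib, against 1280.0 and 1217 with DMSO (-0.35 ± 0.07, adjusted p = 0.0002). These 3 calls held with each library left out. Subunit alpha, ATP5A1 (ATP5F1A), which alternates with beta in the same ring, changed less, between -0.17 and -0.01, and was called only in TMD8 after copanlisib (-0.17 ± 0.06, adjusted p = 0.039), not without copanlisib replicate 2 (0.31) or either DMSO library (0.17 and 0.082). ATP5D (ATP5F1D), subunit delta of the central stalk, was lower in TMD8 after NGI-1 (-0.55 ± 0.12, adjusted p = 0.00023) and copanlisib (-0.47 ± 0.11, 0.0015) and not called in HBL1 (-0.18 to 0.16).

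The 3 genes ATP5G1, ATP5G2 and ATP5G3 (ATP5MC1 to ATP5MC3) encode the same mature subunit c of the proton-driven ring behind different import sequences. ATP5G1 had 126 and 127 CPM in TMD8 after NGI-1, 152 and 139 after acalabrutinib, 129 and 134 after copanlisib, against 169 and 167 with DMSO. It was lower after NGI-1 (-0.41 ± 0.08, adjusted p = 0.00021) and copanlisib (-0.35 ± 0.08, 0.0011) there. Its HBL1 levels were 154 and 156 CPM after NGI-1, 169 and 175 after acalabrutinib, 147 and 153 after copanlisib, against 199 and 183 with DMSO. The copanlisib change there was -0.35 ± 0.08 (adjusted p = 0.0011), and the NGI-1 change of -0.30 ± 0.08 (0.0072) did not hold without NGI-1 replicate 1 (0.056) or DMSO replicate 1 (0.14). ATP5G3 had 146 and 134 CPM in TMD8 after NGI-1, 160 and 144 after acalabrutinib, 145 and 132 after copanlisib, against 199 and 184 with DMSO. It was lower by -0.45 ± 0.09 (adjusted p = 0.00011), -0.33 ± 0.09 (0.0035) and -0.47 ± 0.09 (6.5e-05), and the acalabrutinib call was lost without DMSO replicate 1 (0.062) or acalabrutinib replicate 2 (0.087). ATP5G2 had 287 and 285 CPM in TMD8 after NGI-1, 282 and 263 after acalabrutinib and 293 and 277 after copanlisib, against 274 and 256 with DMSO. HBL1 cells gave 228 and 199 CPM after NGI-1, 215 and 180 after acalabrutinib and 235 and 197 after copanlisib, against 191 and 173 with DMSO. Its 6 changes were all above 0, from 0.04 to 0.25, and 1 was called, after copanlisib in HBL1 (0.25 ± 0.09, adjusted p = 0.037), but not without copanlisib replicate 1 (0.51) or DMSO replicate 2 (0.27). The difference between the genes of the trio was not itself tested.

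Of the 3 genes that share a prefix without encoding a subunit, COX4NB (EMC8), a subunit of the complex that inserts membrane proteins in the endoplasmic reticulum, was lower in each comparison at 24 h. It had 32.4 and 30.9 CPM in TMD8 after NGI-1, 36.6 and 33.9 after acalabrutinib, 36.9 and 32.3 after copanlisib, against 46.8 and 45.1 with DMSO. Its HBL1 levels were 44.9 and 42.0 CPM after NGI-1, 50.6 and 45.3 after acalabrutinib, 43.6 and 45.3 after copanlisib, against 60.5 and 55.3 with DMSO. Every treated library was below both DMSO libraries of its line. The NGI-1 change in TMD8, -0.54 ± 0.11 (adjusted p = 0.00011), held with each library left out. The others ran from -0.28 to -0.42 and were each lost without at least 1 library, acalabrutinib replicate 2 (0.062) or copanlisib replicate 2 (0.07) in TMD8, DMSO replicate 1 in HBL1 (0.069 for NGI-1 and for copanlisib), and any of the 4 for acalabrutinib in HBL1 (0.05 to 0.34). COX4I1, whose promoter window overlaps that of COX4NB, was not lower in these comparisons. ATP5S (DMAC2L) and ATP5SL (DMAC2) were not called in any of them.

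The plot of medians by time shows all 5 complexes below 0 at 24 h in TMD8 for each compound, whereas in HBL1 complex II lies lowest among the complexes and complex IV at or above 0. In HBL1 the signs of some medians changed with scaling: that of complex V after NGI-1 was -0.01 and became 0.03 with total counted reads, that after copanlisib was -0.04 and became 0.02, and that of complex I after acalabrutinib was -0.04 and became 0.02.

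**Figure D3:**
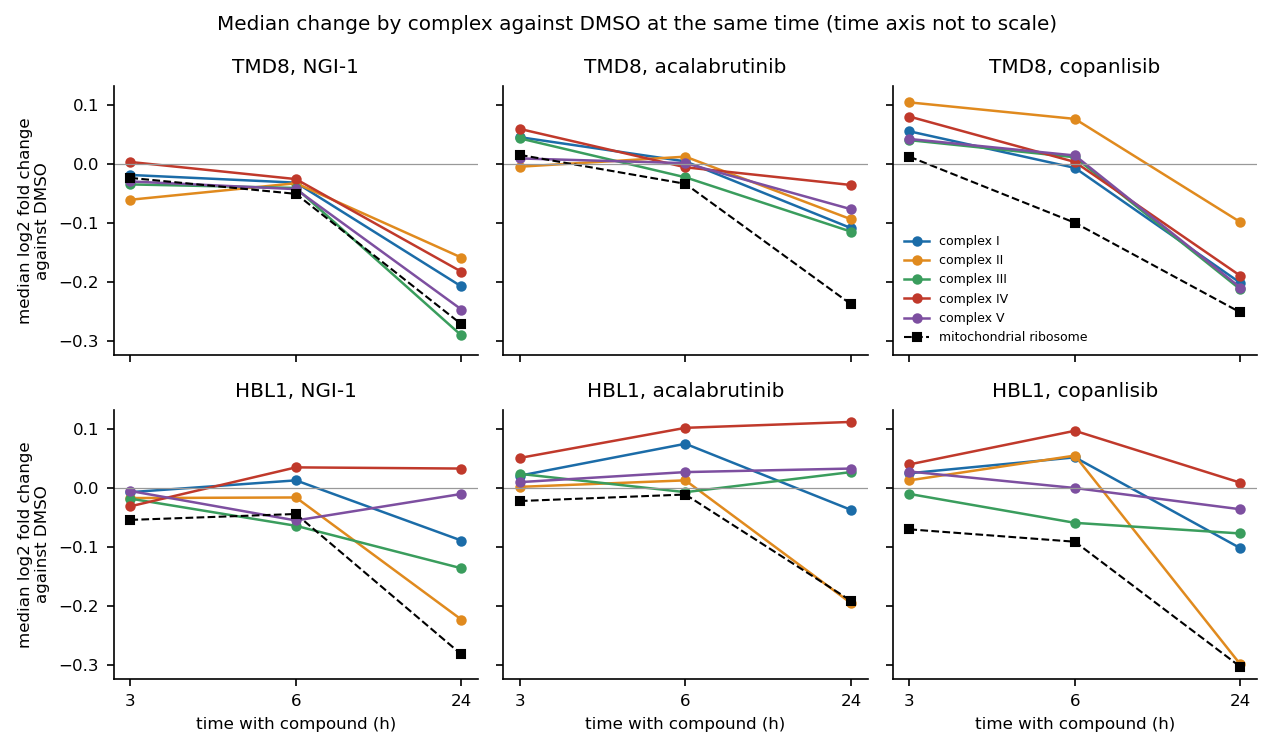
Median log2 fold change against DMSO of the same time (y axis) for each complex (colours) and for 76 mitochondrial ribosomal protein genes (dashed) at 3, 6 and 24 h (x axis). At 24 h the dashed line lies between -0.30 and -0.19 in all 6 panels, and complex IV lies at -0.18 and -0.19 in TMD8 after NGI-1 and copanlisib but between 0.01 and 0.11 in HBL1.

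Each line gave an independent set of libraries for the same compound. After NGI-1 11 genes were lower in both lines, after acalabrutinib 7, and after copanlisib 15. Only acalabrutinib had a gene higher in both, UQCRB, and none was called in opposite directions. The shares of all genes tested that were called in both lines were not counted. Whether these numbers exceed such shares is therefore not known. The test of the difference between the lines called 0 of the 81 for NGI-1 (2.51% of all genes tested) and 0 for acalabrutinib (4.25%). Without adjustment 13 and 9 were below 0.05, and DESeq2 gave 2 and 0 calls. A replicate block, reported at the end although no pairing is stated, gave calls for both compounds and more calls for copanlisib. For copanlisib 4 of the 81 differed, a share near that of all genes (4.18%). SDHA was less far below DMSO in TMD8 than in HBL1 (difference 0.42 ± 0.11, adjusted p = 0.02). ATP5D (-0.63 ± 0.17, 0.024), NDUFB10 (-0.46 ± 0.13, 0.033) and COX5A (-0.36 ± 0.11, 0.037) had a lower response in TMD8 than in HBL1. Each of the 4 calls was lost without 5 or more of the 8 libraries. With 1 library left out, 0 to 2 of the 81 were called for copanlisib, and at most 1 for NGI-1 or acalabrutinib.

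The response at 24 h was also tested against that at 3 h. In TMD8 7 genes had a lower response at 24 h after NGI-1 (6.09% of all genes tested), 3 after acalabrutinib (7.88%) and 16 after copanlisib (5.82%), and none a higher one. In HBL1 2 were lower after NGI-1 (2.59%), 2 after acalabrutinib (2%) and 6 after copanlisib (5.73%). As shares of the respiratory chain genes, the HBL1 counts and that of NGI-1 in TMD8 were near or a little above those of all genes. The acalabrutinib share in TMD8 was under that of all genes. Only the copanlisib share in TMD8 was well above that of all genes, and its count depended on single libraries, as given below. NDUFAB1 changed with copanlisib in TMD8 (-0.88 ± 0.16, adjusted p = 0.00023) and SDHA with copanlisib in HBL1 (-0.58 ± 0.12, 0.00078), and both held with each of 8 libraries left out. The counts were set by single libraries: in TMD8 the 16 became 1 without copanlisib replicate 2 at 3 h, 6 without DMSO replicate 1 at 3 h and 9 without DMSO replicate 2 at 24 h. For NGI-1 in TMD8 the 7 became 2 without NGI-1 replicate 2 at 3 h, 3 without DMSO replicate 1 at 3 h and 4 without NGI-1 replicate 1 at 24 h, and 9 at most. For acalabrutinib in TMD8 the 3 became 10 without acalabrutinib replicate 1 at 3 h and 6 without that at 24 h, and 1 without acalabrutinib replicate 2 at 3 h, DMSO replicate 1 at 3 h or DMSO replicate 2 at 24 h. In HBL1 the 2 for NGI-1 became 0 without any library but DMSO replicate 2 at 24 h. The 2 for acalabrutinib became 1 without DMSO or acalabrutinib replicate 2 at 24 h and 0 without any of the other libraries. The 6 for copanlisib became 2 without copanlisib replicate 2 at 3 h and 3 without DMSO replicate 1 at 3 h or 24 h.

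Set directly against each other at 24 h, the compounds differed in 1 of these genes by the test. In TMD8 none of the 81 differed between NGI-1 and acalabrutinib (1.31% of all genes), NGI-1 and copanlisib (1.43%) or copanlisib and acalabrutinib (0.497%). An unadjusted p below 0.05 was found for 21, 0 and 14 of them, and none was called by DESeq2. The replicate block reported at the end gave calls in TMD8 for NGI-1 against acalabrutinib and for copanlisib against acalabrutinib. The medians were -0.12 for NGI-1 over acalabrutinib, 0.00 for NGI-1 over copanlisib and -0.12 for copanlisib over acalabrutinib. In HBL1 1 gene differed between NGI-1 and acalabrutinib (3.18%), and none between NGI-1 and copanlisib (5%) or copanlisib and acalabrutinib (0.101%), where 5 and 5 were below 0.05 without adjustment and none was called by DESeq2. The exception was NDUFB7, with 36.8 and 35.3 CPM after NGI-1 and 51.1 and 50.9 after acalabrutinib (-0.50 ± 0.14, adjusted p = 0.036), a call lost without any 1 of the 4 libraries (adjusted p = 0.17 to 0.21).

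Many of these genes also rose with time in vehicle. In TMD8 18 of the 81 were higher and 1 lower in DMSO at 24 h than at 3 h (all genes, 16.9% and 15.9%), with a median of 0.17. In HBL1 29 were higher and 4 lower (all genes, 20.8% and 19.2%), with a median of 0.14. The share of the 81 that was higher was only a little above that of all genes in TMD8, and further above it in HBL1. Complex I gave 12 of the 18 genes in TMD8 and 16 of the 29 in HBL1, and none of its members was lower. SDHA had 263 and 266 CPM in TMD8 DMSO cells at 24 h, against 206 and 216 at 3 h (0.33 ± 0.08, adjusted p = 0.00097). HBL1 cells gave 141 and 131 CPM at 24 h, against 88.6 and 86.5 at 3 h (0.64 ± 0.08, adjusted p = 3.9e-08). The 24 h levels of SDHA in HBL1 after each compound, given above, lay between those of DMSO at the 2 times. ATP5G1 in HBL1 had 199 and 183 CPM at 24 h, against 119 and 118 at 3 h (0.69 ± 0.08, adjusted p = 1.7e-08), and the 24 h levels after NGI-1 and copanlisib given above, 147 to 156 CPM, lay between those of DMSO at the 2 times. The rise of NDUFAB1 was 0.48 ± 0.11 for TMD8 (adjusted p = 0.00095) and 0.45 ± 0.11 for HBL1 (0.0015, 0.064 without DMSO replicate 1 at 3 h). In TMD8 DMSO cells at 3 h NDUFAB1 had 83.9 and 81.5 CPM, above its 24 h levels after NGI-1 and copanlisib given above. Those after acalabrutinib lay on either side. NDUFB5, a complex I accessory subunit, had 88.9 and 90.97 CPM in TMD8 at 24 h, against 65.3 and 59.9 at 3 h (0.52 ± 0.11, adjusted p = 0.00021).

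Few genes fell with time in DMSO. NDUFA4L2, known as a target of the hypoxia-inducible factor HIF1, had 12.3 and 8.53 CPM in TMD8 at 3 h, 7.62 and 8.04 at 6 h and 0.861 and 1.81 at 24 h. It passed the minimum of 1 CPM through the TMD8 libraries of 3 and 6 h, in which it is high, so its fall is given as a description without a test. It is the 1 gene counted as lower in TMD8. In HBL1 COX7A2L, which helps to join complexes III and IV, had 124 and 124 CPM at 24 h, against 155 and 179 at 3 h (-0.43 ± 0.08, adjusted p = 5.3e-05). ATP5G2 in HBL1 had 191 and 173 CPM at 24 h, against 238 and 227 at 3 h (-0.35 ± 0.09, adjusted p = 0.0019, 0.052 without DMSO replicate 2 at 24 h), opposite in sign to ATP5G1. Without DMSO replicate 1 at 3 h the number called became 6 in TMD8 and 14 in HBL1, and without DMSO replicate 2 at 24 h it was 8 in TMD8. With total counted reads 35 were called in TMD8, and with no filter 12 in TMD8 and 21 in HBL1.

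**Figure D4:**
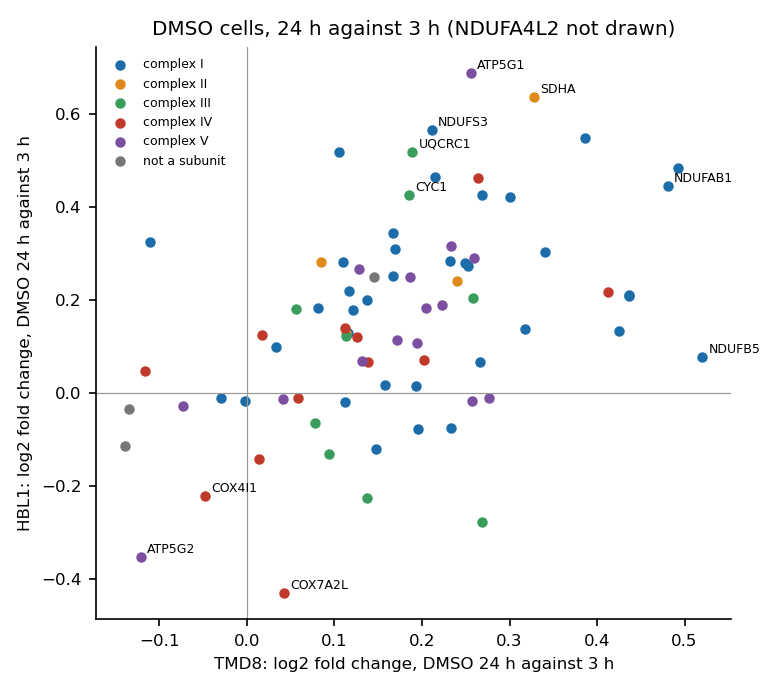
Log2 fold change of the genes in DMSO cells at 24 h against 3 h, in TMD8 (x axis) and HBL1 (y axis), coloured by complex. NDUFA4L2 is not drawn. Most points lie above 0 on both axes, with ATP5G1 and SDHA highest in HBL1 and COX7A2L and ATP5G2 lowest there.

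Between the lines many of these genes differed in level. In DMSO at 24 h, 51 of the 81 genes were higher and 10 lower in TMD8 than in HBL1 (all genes tested, 32.2% and 33.8%), with a median of 0.38. Leaving out 1 library gave 55 to 60 calls. UQCR (UQCR11), a small complex III subunit, had 183 and 237 CPM in TMD8, against 34.1 and 28.9 in HBL1 (2.73 ± 0.13, adjusted p = 1.4e-21). NDUFS7, an iron-sulfur subunit next to the coenzyme Q site of complex I, had 82.1 and 113 CPM in TMD8, against 24.9 and 21.4 in HBL1 (2.07 ± 0.16, adjusted p = 2.1e-14). NDUFV2 had 343 and 364 CPM in TMD8, against 91.2 and 86.8 in HBL1 (1.99 ± 0.09, adjusted p = 2e-22). SDHD was lower in TMD8, with 88.7 and 93.7 CPM against 215 and 210 in HBL1 (-1.22 ± 0.07, adjusted p = 2.5e-18), although SDHA was higher there (0.96 ± 0.08, adjusted p = 5.8e-14). ATP5L (ATP5MG), a membrane subunit of ATP synthase, had 109.9 and 126 CPM in TMD8, against 327 and 322 in HBL1 (-1.46 ± 0.09, adjusted p = 3.9e-18). COX4I1 was also lower in TMD8 (-0.72 ± 0.07, adjusted p = 9.3e-12).

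Several of these line differences ran with those of neighbouring genes. For each gene up to 10 tested genes on either side were taken by order of start position, without regard to distance and leaving out the other members. Near chromosome ends there were fewer, so SDHA had 13 neighbours and ATP5I 17. Around ATP5L and SDHD, on chromosome 11, the neighbours' medians were -1.63 and -1.31, and around SDHA, on chromosome 5, 1.36. On chromosome 19 they were 0.75 for UQCR, 1.05 for NDUFS7 and 0.98 for ATP5D. NDUFA4, on chromosome 7, was 1.52 higher in TMD8 with a neighbours' median of 0.19, and UQCRFS1, on chromosome 19, 1.22 higher with -0.86. Over the 81 genes Pearson's r between a gene's difference and its neighbours' median was 0.379 and Spearman's rho 0.633, as a description, since close genes share neighbours and all points share the same 4 libraries.

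**Figure D5:**
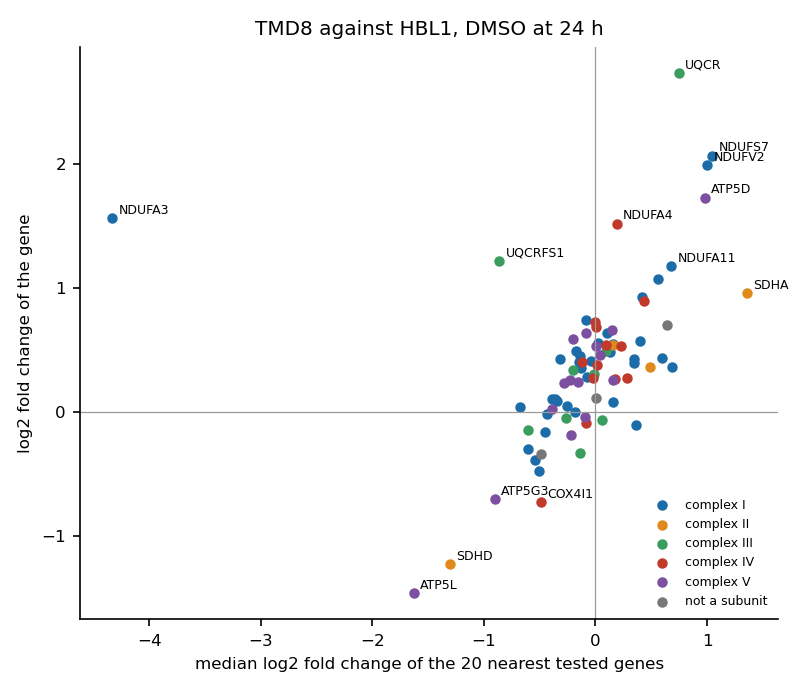
Log2 fold change of each gene in TMD8 against HBL1 in DMSO at 24 h (y axis) and the median of up to 20 neighbouring tested genes (x axis), coloured by complex. ATP5L and SDHD lie at the lower left and UQCR, NDUFS7, NDUFV2 and ATP5D at the upper right, whereas NDUFA3 has neighbours with a median of -4.33.

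Genes that build, regulate or feed the respiratory chain were counted beside it, with lists written from knowledge of the field. The shares of all genes that were lower, against which these counts stand, were 14.9%, 15.5% and 16% in TMD8 after NGI-1, acalabrutinib and copanlisib, and 11.4%, 11.4% and 17.8% in HBL1. Of 76 mitochondrial ribosomal protein genes, which translate the mitochondrially encoded subunits, 36, 29 and 38 were lower in TMD8 at 24 h after NGI-1, acalabrutinib and copanlisib, and 39, 19 and 44 in HBL1 (38.2% to 50.0% and 25% to 57.9% of the list). At most 1 was higher in any of these comparisons. Their medians ran from -0.30 to -0.19, compared with -0.22 to 0.00 for the 81 respiratory chain genes. MRPL3, of the large subunit, had 115 and 105 CPM in TMD8 after NGI-1 and 208 and 214 in HBL1, against 169 and 164 in TMD8 and 288 and 276 in HBL1 with DMSO. MRPL3 was lower in each comparison (-0.66 to -0.35), as was MRPL39 (-0.77 to -0.52), and these calls held with each library left out. Of 45 assembly factors, 12, 11 and 13 were lower in TMD8 and 12, 6 and 15 in HBL1, with 0 to 3 higher. The 6 after acalabrutinib in HBL1 are 13.3% of the list, near the share of all genes. NDUFAF2, which assembles complex I, was lower in TMD8 after NGI-1 (-0.80 ± 0.16, adjusted p = 0.00012) and copanlisib (-0.82 ± 0.16, 7.6e-05). COX19, a copper-handling factor for complex IV, was higher in HBL1 after acalabrutinib (0.66 ± 0.13, adjusted p = 0.00023).

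Of 19 citrate cycle and pyruvate dehydrogenase genes, 11, 9 and 10 were lower in TMD8 and 10, 10 and 12 in HBL1, with 1 higher, IDH2 in HBL1 after NGI-1 (0.39 ± 0.12, adjusted p = 0.017), a call lost without NGI-1 replicate 1 (0.14) or DMSO replicate 2 (0.22). DLAT, a core subunit of pyruvate dehydrogenase, changed by -0.43 to -0.25, and IDH3A, of NAD-dependent isocitrate dehydrogenase, by -0.51 to -0.19. Their acalabrutinib calls were lost without DMSO replicate 1 or acalabrutinib replicate 2, for DLAT in HBL1 (0.1 each) and for IDH3A in TMD8 (0.21 and 0.23). Of 16 carrier and channel genes, 7, 4 and 7 were lower in TMD8 and 5, 4 and 6 in HBL1, with 2 higher in each. VDAC1, the main channel of the outer membrane, had 282 and 265 CPM in TMD8 after NGI-1, 301 and 247 after acalabrutinib, 314 and 237 after copanlisib, against 476 and 426 with DMSO. It was lower by 0.71 to 0.72 on the log2 scale in TMD8 and by 0.44 to 0.63 in HBL1, calls that held throughout. CYCS, cytochrome c, was lower than with DMSO in both lines (-0.65 to -0.31), but its acalabrutinib call in HBL1 was lost without acalabrutinib replicate 1 (0.14). UCP2, an inner membrane carrier, was higher in both, and most in HBL1 after copanlisib, with 552 and 521 CPM against 311 and 317 with DMSO (0.77 ± 0.09, adjusted p = 2.5e-08). Its acalabrutinib call in TMD8 (0.30 ± 0.09, 0.011) was lost without acalabrutinib replicate 1 (0.33) or DMSO replicate 2 (0.17).

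Of 16 regulators of mitochondrial biogenesis tested, 8, 7 and 5 were lower in TMD8 and 7, 4 and 7 in HBL1, and none was higher. TFAM, which packages and transcribes mitochondrial DNA, had 105 and 114 CPM in TMD8 after NGI-1, 109.8 and 109.6 after acalabrutinib, 121 and 109.7 after copanlisib, against 158 and 144 with DMSO. Its HBL1 levels were 115 and 118 CPM after NGI-1, 116 and 115 after acalabrutinib and 115 and 109 after copanlisib, against 161 and 149 with DMSO. All 6 changes, from -0.47 to -0.38, were called with each library left out. MYC was lower in TMD8 (-1.28 to -0.97) and HBL1 (-0.90 to -0.49). In HBL1 its call after acalabrutinib was lost without DMSO replicate 1 (0.12) or acalabrutinib replicate 2 (0.14), and that after copanlisib without copanlisib replicate 2 (0.065). PPRC1, a coactivator related to PGC-1, was lower in TMD8 after NGI-1 (-0.64 ± 0.10, adjusted p = 6.3e-06) and acalabrutinib (-0.52 ± 0.10, 0.00013), and PPARGC1B was called only in TMD8 after NGI-1 (-0.69 ± 0.24, 0.026), not without DMSO replicate 1 (0.27) or NGI-1 replicate 2 (0.35). NRF1, GABPA and ESRRA, whose motifs were searched above, were not called in any of the 6 comparisons, and PPARGC1A had too few reads to be tested. Whether these regulators bear on the 81 genes was not tested.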

How the data were processed

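The authors deposited 1 table of read counts per gene for the 48 libraries; per the submitters' processing notes it involved HTSeq and the genome build hg19, with versions not given in the sources used here. All columns were matched to samples by title (0 unmatched). Counts were analysed with edgeR 4.0.16 in R 4.3.3: genes were filtered by group (13881 kept), scaled with TMM and fitted in 1 quasi-likelihood model of 24 groups with 24 residual degrees of freedom (biological coefficient of variation 7.34%). The 36 comparisons were each adjusted by Benjamini-Hochberg over all genes tested and called under 0.05. CPM values use TMM-scaled library sizes. On simulated data for NGI-1 against DMSO in TMD8 at 24 h, the test recovered 62% of genes changed 1.5-fold and 84.2% of those changed 2-fold, over 13228 genes. The simulation used the same dispersion for all genes, few changed genes and no fold below 1.5. It therefore does not give the share of changes found among the respiratory chain genes, whose changes were mostly smaller.

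Alternatives were DESeq2 1.42.0, RLE size factors, total counted reads, no filter, a replicate block and each library left out, which kept the gene set and dispersion trend. A group left with 1 library was assumed to vary like the others. Equal replicate numbers carry no stated pairing, so the fit has no block.

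The members and lists were chosen with earlier results of these data known. Named genes were those with the largest changes called in both lines per compound, those with the smallest adjusted p in the comparisons of lines, compounds and times and in the related lists, and a list of core subunits and regulators. The other members named (ATP5L, COX7A2L, NDUFA3, NDUFA4L2, NDUFA13, NDUFB5, NDUFS7, NDUFS8, UQCR and UQCRHL) were chosen after their values were seen. Precision is limited by 2 libraries per group and 7165377 to 11999050 counted reads per library.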

Additional observations from a re-analysis of the deposited data

Results flagged for a closer look

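These results are given because the effect of a compound differed between times or between lines by a test of that difference (edgeR's quasi-likelihood test, Benjamini-Hochberg adjusted p, 2 libraries per group). Values are differences of log2 fold changes. Most of the calls listed here were lost when single libraries were left out in turn. Each call of a line difference, and each HBL1 call after NGI-1 or acalabrutinib, was among those lost. So were the calls of ATP5G3 and ATP5B after copanlisib in TMD8.

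In TMD8 the response at 24 h was lower than at 3 h after NGI-1 for NDUFAB1 (-0.74, adjusted p = 0.0015), NDUFA9 (-0.61, 0.0028) and CYC1 (-0.49, 0.0085). After acalabrutinib it was lower for CYC1 (-0.58, adjusted p = 0.0014), NDUFAB1 (-0.53, 0.021) and COX4NB (-0.44, 0.035). After copanlisib it was lower for NDUFAB1 (-0.88, adjusted p = 0.00023), ATP5G3 (-0.57, 0.0017) and ATP5B (-0.44, 0.0026). In HBL1 it was lower after NGI-1 for SDHA (-0.40, adjusted p = 0.031) and COX4NB (-0.48, 0.038), and after acalabrutinib for SDHA (-0.43, 0.022) and NDUFV2 (-0.44, 0.041). After copanlisib in HBL1 it was lower for SDHA (-0.58, adjusted p = 0.00078), ATP5G1 (-0.51, 0.0042) and UQCRC1 (-0.47, 0.0083).

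Between the lines, the response to copanlisib at 24 h in TMD8 minus that in HBL1 was 0.42 for SDHA (adjusted p = 0.02), -0.63 for ATP5D (0.024), -0.46 for NDUFB10 (0.033) and -0.36 for COX5A (0.037).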

How the results depend on the processing

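Values here are numbers of the 81 genes called, in the order NGI-1, acalabrutinib, copanlisib. With 1 library left out, the range at 24 h was 19 to 28, 4 to 19 and 20 to 26 in TMD8 and 5 to 15, 3 to 7 and 16 to 20 in HBL1. It was 0 in every comparison at 3 h and 6 h except 0 to 1 for acalabrutinib in HBL1 at 6 h. For the response at 24 h against 3 h it was 2 to 9, 1 to 10 and 1 to 24 in TMD8 and 0 to 2, 0 to 1 and 2 to 6 in HBL1, for the difference between lines 0 to 1, 0 to 1 and 0 to 2, and 0 for each direct comparison of compounds. DMSO at 24 h against 3 h gave 6 to 17 in TMD8 and 14 to 24 in HBL1, and TMD8 against HBL1 gave 55 to 60. Of 844 gene calls repeated with a library left out, 568 were made again, and none reversed. Of 176 named calls, 167 were made with DESeq2, 167 with RLE size factors, 167 with total counted reads and 140 with no filter.

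A replicate block, tried although the numbers carry no stated pairing, gave more calls. The correlation of same-numbered libraries' deviations was 0.047 to 0.237 over 18 comparisons, above 0.1 in 11. With the block, 48, 26 and 45 genes were called at 24 h in TMD8, and 25 for acalabrutinib in HBL1. At 6 h it gave 1 for NGI-1 and 5 for copanlisib in TMD8, and 3, 8 and 3 in HBL1. The block gave 25, 22 and 39 in TMD8 and 14, 11 and 18 in HBL1 for 24 h against 3 h, and 12, 8 and 17 for the difference between lines. NGI-1 against acalabrutinib then gave 13 in TMD8 and 3 in HBL1, copanlisib against acalabrutinib 6 in TMD8 and 2 in HBL1, NGI-1 against copanlisib 5 in HBL1, and DMSO over time in TMD8 42.

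Total counted reads gave 1 for copanlisib in TMD8 and 1 each for acalabrutinib and copanlisib in HBL1 at 6 h, 1 for acalabrutinib in HBL1 at 24 h against 3 h, 3 for the NGI-1 line difference and 35 for DMSO over time in TMD8. RLE size factors gave 1 for acalabrutinib in HBL1 at 24 h against 3 h and 2 for the NGI-1 line difference. DESeq2 gave 1 for NGI-1 in HBL1 at 24 h against 3 h and 2 for the NGI-1 line difference. With no filter, acalabrutinib in HBL1 gave 0 at 6 h and 7 at 24 h. For 24 h against 3 h no filter gave 5 for acalabrutinib in TMD8, and 0 for NGI-1 and 0 for acalabrutinib in HBL1. It gave 1 each for the NGI-1 and acalabrutinib line differences, 2 for NGI-1 against acalabrutinib in TMD8, 3 for that pair and 2 for NGI-1 against copanlisib in HBL1, and 12 in TMD8 and 21 in HBL1 for DMSO over time. The cause of these shifts was not tested.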
